A study of Mus musculus with 10 samples.

Results

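The genes described here are the metallothioneins Mt1, Mt2 and Mt3, the zinc exporter gene Slc30a1 and Mtf1, which encodes the metal-sensing transcription factor MTF1. They were chosen by name, with earlier results of these data known. Each was represented by its brightest probe set that carried a single gene symbol. Of these 5 genes, 4 were measured among the 22180 genes of the arrays. Slc30a1 has no value, because both of its 2 probe sets also list the neighbouring gene 1700034H15Rik and so cannot be assigned to 1 gene. Mt1, Mt2 and Mt3 had 1 probe set each. Mtf1 had 1 probe set of its own, and another that it shares with 1110065P20Rik was left out.

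RNA came from cultured cortical neurons of mouse embryos at embryonic day 14.5 to 15.5 and was read on 10 Affymetrix whole-transcript arrays. On day 7 in vitro the cultures received 5 µM sodium arsenite, an inorganic arsenic salt that binds thiol groups of proteins, or vehicle for 12 hours. There were 2 arrays of wildtype neurons with vehicle, 4 of wildtype neurons with arsenite, 2 of ATF4-deficient neurons with vehicle and 2 of ATF4-deficient neurons with arsenite. ATF4 is a transcription factor that cells make more of under stress and that switches on amino acid and redox genes. The labels use the term biological replicates without naming separate animals or cultures, so p-values here measure the spread between these samples, which may be technical. They also do not say which part of Atf4 is missing, whether embryos were pooled, or what strain was used. The study compared the response to arsenite with and without ATF4.

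Metallothioneins are small proteins rich in cysteine that bind zinc and copper and can also bind toxic metals and arsenic. Free zinc binds MTF1, which moves to the nucleus and switches on Mt1, Mt2 and Slc30a1 through short promoter sequences called metal response elements. Slc30a1 encodes ZnT1, which carries zinc out of the cell. Mt3 is the brain form, found in neurons and astrocytes, and is known to respond little to metals. In brain, Mt1 and Mt2 are made mostly by astrocytes.

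The promoters of the 3 metallothionein genes are shown because Mt1 and Mt2 followed nearly the same course over the arrays and Mt3 did not. Each sequence is the 250 bases before the gene's start in RefSeq (mouse build GRCm38.p6), read 5′ to 3′ on the plus strand, which is the strand of all 3 genes. Capitals mark matches to the core of the metal response element, searched as TGCACNC or TGCGCNC on both strands. Mt1 lies at chr8:94178839-94179088, Mt2 at chr8:94172368-94172617 and Mt3 at chr8:94152357-94152606.
Mt1: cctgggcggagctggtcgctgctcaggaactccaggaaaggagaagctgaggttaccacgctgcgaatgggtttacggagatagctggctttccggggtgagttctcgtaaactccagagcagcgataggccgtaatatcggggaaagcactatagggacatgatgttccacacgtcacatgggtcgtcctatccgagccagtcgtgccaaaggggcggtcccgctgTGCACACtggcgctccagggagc
Mt2: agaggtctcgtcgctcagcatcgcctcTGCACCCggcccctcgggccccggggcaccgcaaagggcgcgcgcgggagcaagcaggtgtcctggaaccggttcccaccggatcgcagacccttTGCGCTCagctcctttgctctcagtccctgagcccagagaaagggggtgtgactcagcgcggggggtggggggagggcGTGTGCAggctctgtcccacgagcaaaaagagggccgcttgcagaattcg
Mt3: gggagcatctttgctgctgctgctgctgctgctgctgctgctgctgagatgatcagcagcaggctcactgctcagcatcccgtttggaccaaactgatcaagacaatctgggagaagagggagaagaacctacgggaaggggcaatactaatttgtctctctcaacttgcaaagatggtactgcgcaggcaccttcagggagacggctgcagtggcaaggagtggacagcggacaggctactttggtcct

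Upstream of the start, Mt1 had 1 match to this core, Mt2 had 3 and Mt3 had 0. Of the 32851 promoter windows in the table, 21.4% held at least 1 match in the same 250 bases and 1.26% held 3 or more. When the 50 bases after the start were added, Mt1 had 3 matches, Mt2 had 4, Mt3 had 1 and Slc30a1 had 2, and 1.97% of all such 300-base windows held 3 or more. Mtf1 had 0 matches in either window. The core of the antioxidant response element, searched as TGACNNNGC, matched once in the Mt2 promoter (TGACTCAGC, 79 to 71 bases before the start) and once in that of Slc30a1, against 10.2% of all 250-base windows. The core of the C/EBP-ATF response element, TGATGNAA, to which ATF4 can bind, had 0 matches in the windows of the 5 genes and matched in 3.45% of all 250-base windows. None of these motifs overlap in the letters searched in the printed sequences. A match describes letters and not a bound site. Windows were counted from 1 start per gene, so elements outside them were not searched.

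Values are log2 expression after robust multiarray average normalisation (RMA), so 1 unit is a doubling. A gene was called when its p-value from limma, a linear model fitted to all genes, was under 0.05 after Benjamini-Hochberg adjustment over all 22180 genes. Array medians ran from 7.00 to 7.09, and any 2 arrays correlated at 0.982 to 0.994 across genes, which are not replicates. The first principal component (26.8% of the variance) set ATF4-deficient arsenite replicate 2, at 29.4, apart from the others, at -18.2 to 8.70. Atf4 lay at 9.09 and 9.56 in wildtype vehicle, 9.43 to 9.91 in wildtype arsenite and 7.48 to 7.70 on the 4 ATF4-deficient arrays, so the genotype labels and the Atf4 signal matched on all 10 arrays. Hmox1, the heme oxygenase gene that arsenite is known to induce, rose in wildtype by 3.25 ± 0.31 (SE) log2 units (limma adjusted p = 0.0034) and in ATF4-deficient neurons by 2.18 ± 0.36 (adjusted p = 0.0215). All 10 neuron markers lay above 6.63, the level under which 90% of 1394 odorant and pheromone receptor genes fell, and their mean was 10.27 to 10.45 on every array. Astrocyte markers were present too, with 11 of 13 above that level.

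Mt1 and Mt2 were higher on the arsenite arrays than on the vehicle arrays in wildtype neurons, but neither difference was called. Mt1, one of the paired inducible metallothioneins, lay at 10.53 and 10.22 in wildtype vehicle arrays and at 11.26, 10.91, 10.91 and 11.06 in wildtype arsenite arrays. In ATF4-deficient neurons it lay at 10.32 and 8.86 with vehicle and at 11.07 and 10.14 with arsenite. The wildtype groups did not overlap, whereas in ATF4-deficient neurons the lower arsenite array was below the higher vehicle array. The wildtype difference was 0.66 ± 0.34 (SE) log2 units, or 1.58-fold, with a 95% interval of -0.09 to 1.41 (limma adjusted p = 0.523). The ATF4-deficient difference was 1.01 ± 0.39 log2 units, or 2.02-fold, with an interval of 0.15 to 1.88 (adjusted p = 0.324).

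Mt2, the other inducible metallothionein, lay at 12.15 and 11.95 in wildtype vehicle arrays and at 12.79, 12.65, 12.53 and 12.82 in wildtype arsenite arrays. In ATF4-deficient neurons it lay at 11.72 and 9.68 with vehicle and at 12.74 and 11.83 with arsenite. Here the arsenite arrays were above the vehicle arrays in both genotypes. The difference was 0.65 ± 0.42 log2 units, or 1.57-fold, in wildtype (limma adjusted p = 0.647) and 1.59 ± 0.49, or 3.01-fold, in ATF4-deficient neurons (adjusted p = 0.192). The 95% intervals were -0.28 to 1.58 and 0.51 to 2.66.

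In wildtype neurons, 0 of 4 measured genes were called against 0.482% of all genes, and in ATF4-deficient neurons 0 of 4 against 1.15%. The groups did not overlap for 3 of 4 genes in wildtype (Mt1, Mt2 and Mtf1) against 20.6% of all genes, and for 2 of 4 in ATF4-deficient neurons (Mt2 and Mtf1) against 38.8%. Averaged over both genotypes, arsenite minus vehicle was 0.84 ± 0.26 for Mt1 (limma adjusted p = 0.123) and 1.12 ± 0.32 for Mt2 (adjusted p = 0.0965), and 0 of 4 genes were called against 3.07% of all genes. No gene of the 4 had groups apart on this average, against 3.85% of all genes. An exact permutation test that exchanged treatment within each genotype gave a two-sided p of 0.0333 for Mt1 and of 0.0111 for Mt2, the smallest that its 90 relabellings allow. These are 2 of 8 such tests, with no adjustment. Without 1 array in turn the permutation p ran from 0.0222 to 0.289 for Mt1, staying under 0.05 only without ATF4-deficient vehicle replicate 1. For Mt2 it passed 0.05 without ATF4-deficient vehicle replicate 2 (0.133), arsenite replicate 1 (0.311) or arsenite replicate 2 (0.156).

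**Figure D1:**
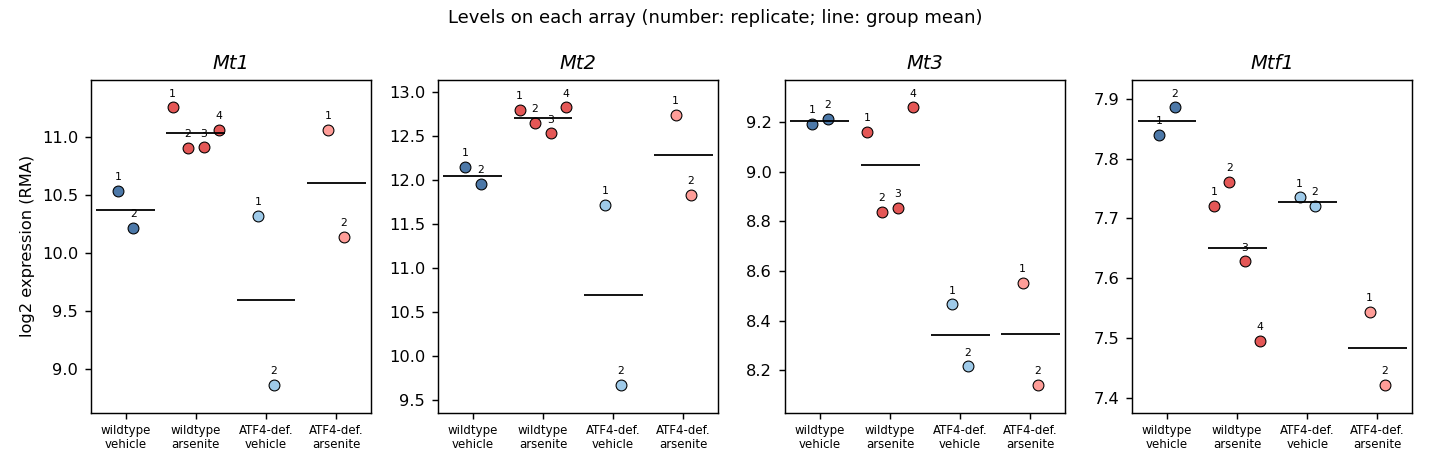
Log2 RMA level of Mt1, Mt2, Mt3 and Mtf1 on each of the 10 arrays, with a separate vertical scale per gene. Points are arrays with their replicate numbers and lines are group means; for Mt1 and Mt2 the low point is ATF4-deficient vehicle replicate 2 (8.86 and 9.68), and for Mt3 the 4 ATF4-deficient arrays (8.14 to 8.55) lie below the 6 wildtype arrays (8.84 to 9.26).

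The ATF4-deficient vehicle pair was widely split for Mt1 and Mt2. Its replicates differed by 2.04 log2 units for Mt2, a gap reached by 6 of 22180 genes, and by 1.46 for Mt1, reached by 12. The median gap in this pair was 0.115. With arsenite, the ATF4-deficient replicates differed by 0.92 for Mt1 and 0.90 for Mt2, gaps reached by 94 and 99 genes. In both pairs replicate 1 was the higher. The wildtype pair with vehicle differed by 0.32 and 0.19, and the 4 wildtype arsenite arrays spanned 0.35 and 0.29.

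Other genes were split the same way in ATF4-deficient vehicle arrays. Hmox1 was at 8.05 and 6.67, Ttr, the transthyretin gene known from choroid plexus, at 11.75 and 9.73, and Tcf7l2, a transcription factor of the Wnt pathway, at 8.11 and 6.25. Slc1a3, an astrocyte glutamate transporter gene, was at 8.70 and 7.52, and the mean of the 13 astrocyte markers was 7.77 and 7.44. Xist, which is expressed from the inactive X chromosome of female cells, was at 11.75 and 6.26. These 5 genes were picked after their values were seen, and their part in the Mt1 and Mt2 differences was not tested.

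With all arrays Mt2 was not called for arsenite, and this outcome depended on that pair. Without ATF4-deficient vehicle replicate 1, the arsenite difference of Mt2 in ATF4-deficient neurons was 2.61 (limma adjusted p = 0.0081) and the difference averaged over genotypes 1.63 (adjusted p = 0.0039). The same removal gave Mt1 a difference of 1.74 in ATF4-deficient neurons (adjusted p = 0.0616) and of 1.20 averaged over genotypes (adjusted p = 0.0180). Without ATF4-deficient vehicle replicate 2 instead, the arsenite difference in ATF4-deficient neurons was 0.57 for Mt2 (adjusted p = 0.515) and 0.28 for Mt1 (adjusted p = 0.820). A lone vehicle array is assumed in these fits to vary like the other groups.

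Between genotypes, Mt1 and Mt2 had lower means in ATF4-deficient neurons in vehicle and in arsenite, and no difference was called. With vehicle the difference was -0.78 ± 0.39 (SE) log2 units for Mt1 (limma adjusted p = 0.511; -1.52 to -0.05 without 1 array in turn) and -1.35 ± 0.49 for Mt2 (adjusted p = 0.324). With arsenite it was -0.43 ± 0.34 (adjusted p = 0.641) and -0.41 ± 0.42 (adjusted p = 0.733). Only Mt2 with vehicle had groups that did not overlap, against 42.5% of all genes with vehicle and 18.5% with arsenite. Averaged over both treatments, the difference was -0.61 ± 0.26 for Mt1 (limma adjusted p = 0.277). For Mt2 this average was -0.88 ± 0.32 (limma adjusted p = 0.208). Without ATF4-deficient vehicle replicate 1, the Mt2 difference was -2.37 with vehicle and -1.39 over both treatments. The Mt1 difference over both treatments was then -0.97. Without ATF4-deficient vehicle replicate 2 instead, the Mt2 difference was -0.33 with vehicle and -0.37 over both treatments. The Mt1 difference over both treatments was then -0.24. Each of these removals leaves 1 array in that group, so only sizes are given. Without ATF4-deficient arsenite replicate 2 the difference with arsenite was 0.03 for Mt1 and 0.04 for Mt2, so its sign turned. The permutation test over both treatments gave p = 0.111 for Mt1 and p = 0.0333 for Mt2, and the latter ran from 0.0333 to 0.378 without 1 array in turn, under 0.05 in 2 of 10 removals.

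Whether ATF4 status changed the response to arsenite was tested by subtracting the wildtype difference from the ATF4-deficient one, which gave 0.35 ± 0.52 (SE) log2 units for Mt1 (limma adjusted p = 0.937) and 0.94 ± 0.65 for Mt2 (adjusted p = 0.880). The 95% intervals, -0.79 to 1.49 and -0.48 to 2.36, covered responses more than a doubling apart in favour of ATF4-deficient neurons. No gene of the array was called in this contrast (0%), and 1330 had an unadjusted p under 0.05.

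The groups of Mt1, ordered by mean, were wildtype arsenite at 11.03 ± 0.17 (SD, n = 4), ATF4-deficient arsenite at 10.60 ± 0.65 (n = 2), wildtype vehicle at 10.38 ± 0.22 (n = 2) and ATF4-deficient vehicle at 9.59 ± 1.03 (n = 2). Every neighbouring pair in that order overlapped. Mt2 had the same order, at 12.70 ± 0.14, 12.29 ± 0.64, 12.05 ± 0.14 and 10.70 ± 1.44. Among its neighbours only the vehicle groups of the 2 genotypes did not overlap, by 0.24 log2 units, and they were not told apart by limma.

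Mt3 was lower in ATF4-deficient neurons, and it was the 1 gene of the 4 that was called in any comparison. It lay at 9.19 and 9.21 in wildtype vehicle arrays and at 9.16, 8.84, 8.85 and 9.26 in wildtype arsenite arrays. In ATF4-deficient neurons it lay at 8.47 and 8.22 with vehicle and at 8.55 and 8.14 with arsenite. All 4 ATF4-deficient arrays were below all 6 wildtype arrays. Averaged over both treatments the difference was -0.77 ± 0.11 (SE) log2 units, or 1.71-fold lower, with a 95% interval of -1.02 to -0.52 (limma adjusted p = 0.0101). In this contrast 1 of 4 genes was called lower against 1.24% of all genes (1.82% in either direction), and 1 of 4 had groups that did not overlap against 2.72%.

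Within each treatment Mt3 did not reach the threshold. The genotype difference was -0.86 ± 0.17 with vehicle (limma adjusted p = 0.0587), where 0 of 4 genes were called against 0.433% of all genes. It was -0.68 ± 0.15 with arsenite (adjusted p = 0.105), where 0 of 4 were called against 0.343%. The groups did not overlap for Mt3 in either treatment, nor for Mt2 and Mtf1 with vehicle, against 42.5% of all genes with vehicle and 18.5% with arsenite. The permutation test that exchanged genotype within each treatment gave Mt3 the smallest p it allows, 0.0111, and p was at most 0.0333 without any 1 array. Leaving out wildtype vehicle replicate 2 ended the limma call on the average (-0.77, adjusted p = 0.0648), as did leaving out replicate 2 of the ATF4-deficient vehicle pair (-0.71, adjusted p = 0.0661). With vehicle, Mt3 was called in 4 alternative fits (adjusted p 0.0307 to 0.0452): a low-signal filter, equal array medians, array weights and a replicate block.

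With arsenite, Mt3 differed by -0.18 ± 0.15 (SE) log2 units in wildtype (limma adjusted p = 0.752) and by 0.01 ± 0.17 in ATF4-deficient neurons (adjusted p = 0.994). The 95% intervals, -0.50 to 0.15 and -0.37 to 0.39, exclude a doubling in either genotype. The group means were 9.20 ± 0.01 (SD, n = 2) in wildtype vehicle, 9.03 ± 0.21 (n = 4) in wildtype arsenite, 8.35 ± 0.29 (n = 2) in ATF4-deficient arsenite and 8.34 ± 0.18 (n = 2) in ATF4-deficient vehicle arrays. Of the neighbours in this order, only wildtype arsenite and ATF4-deficient arsenite did not overlap.

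Astrocyte markers moved with genotype in the same direction as Mt3. Averaged over treatments, 6 of 13 were called lower in ATF4-deficient neurons and 0 higher, against 1.24% and 0.582% of all genes, among them Slc1a3 (-1.66 ± 0.27, limma adjusted p = 0.0132), the water channel gene Aqp4 (-1.14 ± 0.20, adjusted p = 0.0180), the transporter gene Slc4a4 (-1.04 ± 0.21, adjusted p = 0.0315) and the enzyme gene Aldoc (-0.95 ± 0.17, adjusted p = 0.0215). The list had a median of -0.56 against 0.01 for all genes, and 12 of 13 estimates were negative. Its mean level per array was 8.34 and 8.57 in wildtype vehicle, 7.77 to 8.31 in wildtype arsenite and 7.36 to 7.77 on the 4 ATF4-deficient arrays. The count fell to 1 without wildtype vehicle replicate 2 or without ATF4-deficient vehicle replicate 2, and to 3 without ATF4-deficient arsenite replicate 2. With arsenite over both genotypes, 12 of 13 estimates were negative (median -0.22) and 1 was called lower (Gfap), against 1.42% of all genes. That call held in 1 of 10 removals of 1 array. Fewer astrocytes and less RNA of these genes per cell cannot be told apart in bulk samples, and the part of the cell types in the Mt3 difference was not tested.

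Markers of other cell types were called in this average too, where 1.24% of all genes were lower and 0.582% higher. Of 6 measured oligodendrocyte lineage markers, 3 were lower in ATF4-deficient neurons over both treatments (Olig1, Olig2 and Pdgfra), falling to 0 without wildtype vehicle replicate 2 and to 1 without ATF4-deficient vehicle or arsenite replicate 2. Of 6 progenitor markers 2 were lower (Hes5 and Sox2), and of 10 neuron markers 1 was lower (Tubb3) and 1 higher (Nefl). Both counts went to 0 without wildtype vehicle replicate 2 or ATF4-deficient vehicle replicate 2, and they were unchanged without 2 and 1 of the 10 arrays, respectively. Microglia markers (8) and endothelial markers (6) had 0 calls, and 1 of 7 mural and fibroblast markers (Rgs5) was higher, a call that ended without wildtype vehicle replicate 2, ATF4-deficient vehicle replicate 2 or either ATF4-deficient arsenite array. Whether these counts differ between cell types was not tested.

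**Figure D2:**
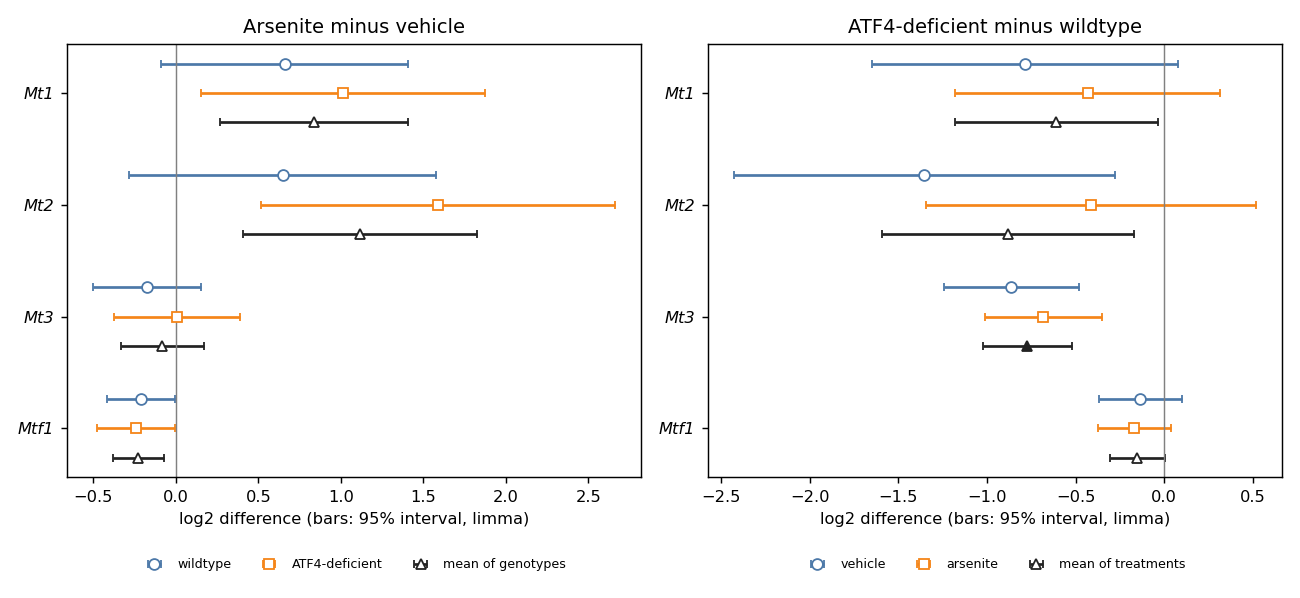
Log2 differences of Mt1, Mt2, Mt3 and Mtf1 between arsenite and vehicle (left) and between genotypes (right), with 95% intervals from limma. Filled symbols are called; the single filled symbol is Mt3 for ATF4-deficient minus wildtype averaged over treatments (-0.77), while the widest interval belongs to Mt2.

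Mtf1, the gene of the metal sensor itself, was somewhat lower with arsenite, and no difference was called. It lay at 7.84 and 7.89 in wildtype vehicle arrays and at 7.72, 7.76, 7.63 and 7.49 in wildtype arsenite arrays. In ATF4-deficient neurons it lay at 7.74 and 7.72 with vehicle and at 7.54 and 7.42 with arsenite. The arsenite arrays were below the vehicle arrays in both genotypes. The difference was -0.21 ± 0.09 (SE) log2 units in wildtype (limma adjusted p = 0.439), -0.24 ± 0.11 in ATF4-deficient neurons (adjusted p = 0.398) and -0.23 ± 0.07 over both (adjusted p = 0.126). The permutation p for arsenite was 0.0222, and 0.0667 without either wildtype vehicle array.

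Between genotypes Mtf1 differed by -0.13 ± 0.11 with vehicle (limma adjusted p = 0.729) and by -0.17 ± 0.09 with arsenite (adjusted p = 0.510). Its permutation p for genotype was 0.0333, and it lay between 0.0167 and 0.133 without 1 array in turn. The groups ran from wildtype vehicle at 7.86 ± 0.03 (SD, n = 2) through ATF4-deficient vehicle at 7.73 ± 0.01 (n = 2) and wildtype arsenite at 7.65 ± 0.12 (n = 4) to ATF4-deficient arsenite at 7.48 ± 0.09 (n = 2). Only the vehicle groups did not overlap among neighbours in this order.

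Over the 10 arrays Mt1 and Mt2 correlated at Pearson r = 0.982 (Spearman rho 0.915), and each was the gene most like the other among 13523 genes above the receptor level. With each group's mean removed, r was 0.974. Without the arrays farthest from the Mt1 median, ATF4-deficient vehicle replicate 2 and arsenite replicate 2, it was 0.958 over 8 arrays. Both share all arrays, and cross-hybridisation between probe sets of such similar genes could not be checked. Mt3 correlated with Mt1 at 0.589 and with Mt2 at 0.595, and these fell to 0.08 and 0.30 without the 2 farthest arrays. The arrays farthest from the Mt2 median were the 2 ATF4-deficient vehicle arrays. Values with Mt1 and with Mt2 therefore rest on different sets of 8 arrays. Mtf1 correlated with Mt1 at -0.18 and with Mt2 at -0.19, and these became -0.68 and -0.16 without the 2 farthest arrays. These are descriptions with no test.

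After Mt2, the genes most like Mt1 among 12469 with regular names were Cdc14a, a phosphatase gene (r = 0.947), and Denn2b (r = 0.945). Those most like Mt2 after Mt1 were Commd10 (r = 0.959) and Cdc14a (r = 0.959). Commd10 and Cdc14a moved over far smaller ranges than Mt2. Commd10 lay at 8.01 to 8.05 in wildtype arsenite arrays, and in ATF4-deficient neurons at 7.97 and 7.77 with vehicle and at 8.03 and 8.01 with arsenite. Its likeness rested on the ATF4-deficient vehicle pair, since r was 0.674 over the other 8 arrays.

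The genes most like Mt3 were Bcan (r = 0.993), which encodes the matrix proteoglycan brevican, the glutamine transporter gene Slc38a3 (r = 0.990) and the cationic amino acid transporter gene Slc7a2 (r = 0.988, rho 1). Bcan lay at 8.20 and 8.31 in wildtype vehicle, 8.15, 7.65, 7.38 and 8.34 in wildtype arsenite and 6.26 to 7.03 on the 4 ATF4-deficient arrays. As for Mt3, every ATF4-deficient array was below every wildtype array. With group means removed, r with Mt3 was 0.972 for Bcan, 0.954 for Slc38a3 and 0.979 for Slc7a2. Over both treatments ATF4-deficient minus wildtype was -1.47 ± 0.20 for Bcan (limma adjusted p = 0.0075), -1.33 ± 0.14 for Slc38a3 (adjusted p = 0.0026) and -0.45 ± 0.09 for Slc7a2 (adjusted p = 0.0365). The genes most like Mtf1 were Dennd4b (r = 0.971), Abhd17a (r = 0.967) and Tomm34 (r = 0.961), of which Tomm34 fell with arsenite over both genotypes (-0.27 ± 0.06, adjusted p = 0.0465).

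**Figure D3:**
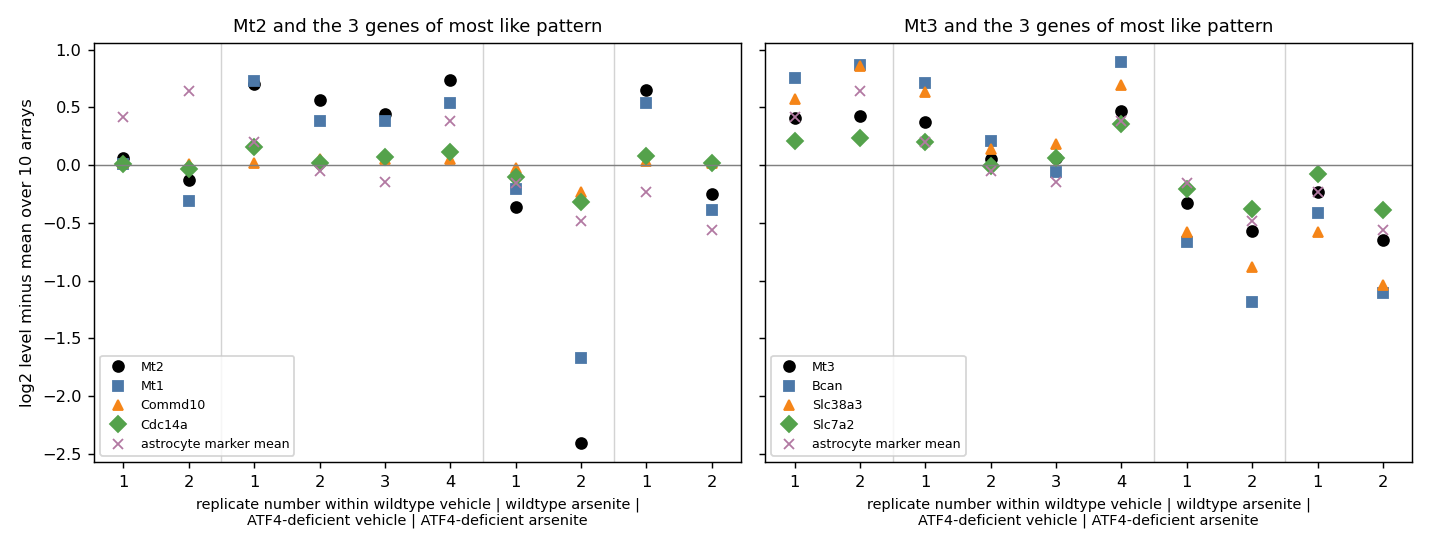
Log2 level minus the mean over the 10 arrays for Mt2 (left) and Mt3 (right), each with the 3 genes of highest Pearson r and the mean of 13 astrocyte markers. Mt1 follows Mt2 with the low point at ATF4-deficient vehicle replicate 2, and Bcan, Slc38a3 and Slc7a2 follow Mt3 with all ATF4-deficient arrays below zero.

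Mt4, the metallothionein of stratified epithelia, stayed between 5.53 and 6.16, below the receptor level, and had no call. The 4 metallothionein genes lie in 1 cluster on chromosome 8 in the order Mt4, Mt3, Mt2, Mt1. Of the 6 nearest measured genes around it, Bbs2, Ogfod1 and Nudt21 on 1 side and Nup93, Mir138-2 and Slc12a3 on the other, 0 were called in any contrast. The smallest adjusted p belonged to Ogfod1, with an averaged arsenite difference of 0.28 ± 0.07 (limma adjusted p = 0.0578).

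Of 8 measured zinc exporters of the ZnT family, 0 were called in any contrast, against 0% to 3.07% of all genes, and their median arsenite difference over both genotypes was -0.02 against -0.01 for all genes. The 2 with the highest levels, Slc30a9 and Slc30a5, were not called. Slc30a3, which loads zinc into synaptic vesicles, differed by -0.03 ± 0.10 (SE; limma adjusted p = 0.939). Of 14 zinc importers of the ZIP family, 1 fell with arsenite over both genotypes and 0 rose, against 1.42% and 1.65% of all genes, and the median was -0.09.

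The importer that fell was Slc39a10, a zinc importer of the plasma membrane, which MTF1 is known to repress. It lay at 9.60 and 9.75 in wildtype vehicle arrays and at 8.75, 9.05, 8.90 and 8.94 in wildtype arsenite arrays. In ATF4-deficient neurons it lay at 9.60 and 10.05 with vehicle and at 9.24 and 9.46 with arsenite. All 6 arsenite arrays were below all 4 vehicle arrays. The difference over both genotypes was -0.62 ± 0.10 (SE) log2 units (limma adjusted p = 0.0094), and the call ended only without wildtype vehicle replicate 2 (-0.58, adjusted p = 0.0513) among the removals of 1 array. In wildtype alone it was -0.76 ± 0.13 (adjusted p = 0.0394), a call kept only without either ATF4-deficient vehicle array and with adjusted p up to 0.255 without the others. In ATF4-deficient neurons it was -0.48 ± 0.15 (adjusted p = 0.215), and the difference of the responses was not called (0.29 ± 0.20, adjusted p = 0.882).

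Slc39a10 is among 7 measured genes linked to MTF1 in earlier work. Of these, 1 was higher and 1 lower with arsenite over both genotypes, against 1.65% and 1.42% of all genes. The median was -0.21 against -0.01 for all genes. Gclc, which encodes the catalytic subunit of the first enzyme of glutathione synthesis, lay at 8.48 and 8.55 in wildtype vehicle, 8.86 to 9.25 in wildtype arsenite, and in ATF4-deficient neurons at 8.22 and 8.26 with vehicle and at 8.80 and 9.06 with arsenite. Its rise over both genotypes was 0.59 ± 0.09 (SE) log2 units (limma adjusted p = 0.0062) and was called without any 1 array. Slc40a1, the iron exporter gene ferroportin, lay mostly below the receptor level. It was at 6.20 and 5.75 in wildtype vehicle and at 6.99 and 7.09 in ATF4-deficient vehicle arrays, a genotype difference of 1.07 ± 0.14 (adjusted p = 0.0163). That call ended without wildtype vehicle replicate 2 or ATF4-deficient vehicle replicate 2. With arsenite in ATF4-deficient neurons, Slc40a1 was called lower (-0.73, limma adjusted p = 0.0359) and Gclc higher (0.69, adjusted p = 0.0373). In that contrast 1.15% of all genes were called in either direction. The 2 calls held in 3 and 2 of 10 removals of 1 array, respectively.

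Of 10 measured copper-handling genes, 0 were called in any contrast, against 0% to 3.07% of all genes, which is near that background. Among them was Sod1, the copper and zinc superoxide dismutase gene (0.17 ± 0.08 with arsenite over both genotypes, limma adjusted p = 0.329). Mt1 and Mt2 are also known to be induced by glucocorticoids, whose part in their values here was not tested. Of 7 genes known as glucocorticoid-induced, 0 rose with arsenite over both genotypes, against 1.65% of all genes, and 1 fell, against 1.42%, the clock gene Per1 (-0.63 ± 0.13, adjusted p = 0.0254), a call that ended without any of 6 single arrays.

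**Figure D4:**
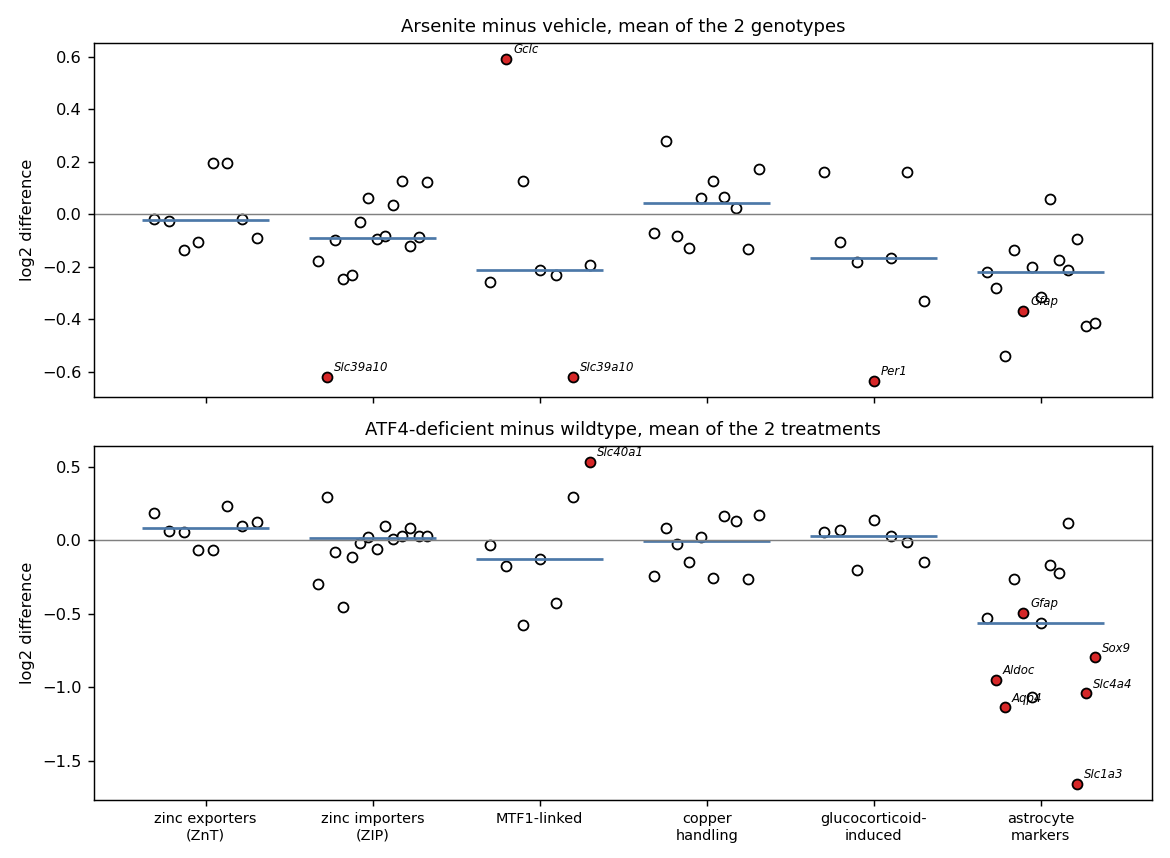
Log2 differences of the measured genes in 6 lists for arsenite minus vehicle (top) and ATF4-deficient minus wildtype (bottom), each averaged over the other factor. Circles are genes, red circles are called and named, and blue lines are list medians. With arsenite Gclc was called higher and Slc39a10, Per1 and Gfap lower. Between genotypes 6 of 13 astrocyte markers were called lower and Slc40a1 higher. Slc39a10 appears in 2 lists.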

How the data were processed

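The 10 arrays fall into 4 groups taken from the sample titles. The authors deposited log2 expression values, normalised by RMA in Partek Genomics Suite 6.6 per the submitters' processing notes, from 100 ng of Trizol-extracted total RNA labelled with WT PLUS reagents per the labels' protocols. RMA makes all arrays' distributions equal, which hides any shift common to most genes. Scanner files were not used here, and no scan date is given in the sources used here. Of 41345 probe sets, 23521 carried 1 symbol, 1814 several and 16010 none in the platform annotation; for 1082 genes with several, the probe set with the highest mean was kept. limma 3.58.1 (R 4.3.3) was fitted with 1 mean per group and no covariates, with contrasts for arsenite in each genotype, genotype in each treatment, their averages and the interaction. Called means an adjusted p under 0.05. In simulated data for arsenite in ATF4-deficient neurons over 22180 genes, 98% of changes of 1 log2 unit and 100% of 2 were recovered. There were 11 false calls in all. The changes were put in genes drawn at random, with independent noise at each gene's own spread. Mt1 and Mt2 varied more than most genes between ATF4-deficient replicates, with standard errors of 0.39 and 0.49 in this contrast. The recovery rates therefore do not apply to them. The number of arrays limits precision. Replicate numbers were not taken to pair the samples. The genes and lists were chosen with earlier results of these data known. List genes named are those called, up to 4 per list and contrast, with examples by level. Sequences are RefSeq's. Alternatives were a low-signal filter, averaged probe sets, equal medians, repeated quantile normalisation, array weights, an intensity trend, a replicate block, fits of the compared groups alone and leaving out each array.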

Additional observations from a re-analysis of the deposited data

Results flagged for a closer look

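Of 53 groups tested for a single far array, 2 had one, and chance alone gives about 1 in 20. Olig2, an oligodendrocyte lineage gene, lay at 8.20 on wildtype arsenite replicate 3, with the nearest of the other 3 arrays at 8.48. Bbs2, a gene beside the metallothionein cluster, lay at 8.20 on wildtype arsenite replicate 1, with the nearest other array at 7.91. Slc40a1, the ferroportin gene, moved in opposite directions with arsenite in the genotypes, by 0.34 in wildtype and -0.73 in ATF4-deficient neurons, a difference of -1.07 log2 units that limma did not call (adjusted p = 0.340). Only its ATF4-deficient vehicle arrays lay above 6.63, the receptor level, so these sizes and directions rest on dim signal. The mean of the 8 zinc exporters also moved in opposite directions on every array, by -0.07 in wildtype and 0.07 in ATF4-deficient neurons, a difference of 0.15 that was not tested.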

How the results depend on the processing

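Counts of called genes moved by over 1.5 times under several alternatives. Arsenite in wildtype gave 107 calls, and 162 with the low-signal filter, 186 with array weights, 17 with the replicate block and 11 with the compared groups alone. Arsenite in ATF4-deficient neurons gave 256, and 135 with array weights and 0 with the groups alone by limma (2025 at an unadjusted p under 0.05), where fewer samples enter. Genotype with vehicle gave 96, and 193 with the filter, 228 with weights, 165 with the block and 0 with the groups alone by limma (2619 unadjusted). Genotype with arsenite gave 76, and 40 with weights, 4 with the block and 41 with the groups alone. Repeated quantile normalisation changed the split of higher and lower calls from 51 and 56 to 89 and 63 for arsenite in wildtype and from 40 and 56 to 59 and 55 for genotype with vehicle.

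Replicate numbers were not taken to pair the samples, because no label gives a shared source. Deviations of same-numbered arrays from their group means correlated above 0.1 in 5 of 12 pairs. They ran from -0.06 to 0.40, highest between the ATF4-deficient groups. Between groups of 2 arrays, replicates 1 and 2 give the same correlation by construction, counted 2 times. With vehicle and arsenite, Xist was 11.75 and 12.26 in ATF4-deficient replicate 1 and 6.26 and 6.70 in replicate 2. In wildtype it was 7.88 and 8.09 in replicate 1 and 11.89 and 6.95 in replicate 2. Whether same-numbered arrays share a source was not tested. A replicate block raised Mt1 to a call for arsenite over both genotypes (0.86, adjusted p = 0.0408). Mt3 with vehicle, at -0.86 between genotypes, was called with the filter (-0.863), equal medians (-0.869), array weights (-0.863) and the block (-0.863). The Mt3 arsenite difference in ATF4-deficient neurons turned sign with repeated quantile normalisation (-0.0101). The causes were not tested. The other 206 values of the 4 genes under these settings kept their direction and side of the threshold.

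Leaving out 1 array in turn, the counts ran from 0 to 75 for arsenite in wildtype, 50 to 200 in ATF4-deficient neurons, 0 to 99 for genotype with vehicle, 1 to 64 with arsenite, 242 to 654 for arsenite averaged and 58 to 377 for genotype averaged. For Mt1 the values ran from 0.47 to 1.20 for arsenite averaged, -0.97 to -0.24 for genotype averaged, -0.89 to 0.0312 for genotype with arsenite and -0.38 to 1.08 for the interaction (-0.11 without ATF4-deficient arsenite replicate 1). For Mt2 they ran from 0.57 to 2.61 for arsenite in ATF4-deficient neurons, -2.37 to -0.33 for genotype with vehicle, -0.86 to 0.0406 for genotype with arsenite, -0.0790 to 1.96 for the interaction, 0.61 to 1.63 for arsenite averaged and -1.39 to -0.37 for genotype averaged. For Mt3 they ran from -0.20 to 0.21 for arsenite in ATF4-deficient neurons (-0.12 without ATF4-deficient vehicle replicate 2), -0.0241 to 0.39 for the interaction, -0.19 to 0.0186 for arsenite averaged and -0.88 to -0.67 for genotype averaged. For the interaction of Mtf1 they ran from -0.0954 to 0.0268 (0.0024 without wildtype arsenite replicate 2).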

Other observations

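Xist and Eif2s3y, which mark female and male cells, separated the arrays within groups. Xist lay at 7.88 and 11.89 in wildtype vehicle, at 8.09, 6.95, 6.56 and 11.88 in wildtype arsenite, at 11.75 and 6.26 in ATF4-deficient vehicle and at 12.26 and 6.70 in ATF4-deficient arsenite arrays. Eif2s3y, on the Y chromosome, lay at 8.30 to 9.29 on the arrays where Xist was 8.09 or less and at 4.99 to 5.68 on the others. In both ATF4-deficient pairs the array with more Xist had more Mt1 and Mt2, and in the wildtype vehicle pair it had less of both. The 1 wildtype arsenite array with high Xist, replicate 4, had the highest Mt2 of its group (12.82) and an Mt1 level (11.06) below that of replicate 1 only. The part of sex in the Mt1 and Mt2 values was not tested.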
